A study of Mus musculus with 4 samples.

Results

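The Tudor domain family was followed as 10 genes, namely Tdrd6, Tdrd1, Tdrd3, Rnf17, Tdrd5, Tdrd7, Stk31, Tdrd9, Tdrd12 and Tdrkh. They were chosen by name, as relatives of the gene disrupted in the mice, and not by any measured value. They are 10 of 37718 gene rows, and they hold 197 of 207562 introns. All 10 had a row in every library. Together they carry 247 exon segments and 234 splice junctions, of which 21 are unannotated.

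A Tudor domain is a small fold that binds methylated arginine or lysine on other proteins. In male germ cells several proteins with repeated Tudor domains bind the methylated arginines of PIWI proteins, the partners of piRNAs, and gather in granules such as the intermitochondrial cement and the chromatoid body. These granules are known for the silencing of transposons and for RNA handling in meiotic and post-meiotic cells. TDRD6 is a scaffold of the chromatoid body.

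The RNA came from testis cells of mice at 20 days post partum (dpp), isolated with magnetic beads against human CD4 (hCD4), a surface marker made from the endogenous Tdrd6 promoter. There were 2 Tdrd6+/- libraries and 2 Tdrd6-/- libraries, each from cells pooled from at least 4 mice. Both genotypes carry hCD4, and the reference here is the heterozygote, with 1 intact Tdrd6 copy, not the wild type. Which bases the disrupted allele lacks is not given in the sources used here. The purpose of the comparison was to see how loss of TDRD6 affects the transcriptome and the splicing of primary spermatocytes.

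The libraries were of similar depth, with 43778449 to 47221554 tallied fragments each. The share of fragments on introns was 31.0% and 27.1% in Tdrd6+/- and 27.4% and 21.9% in Tdrd6-/-, so Tdrd6-/- replicate 2 stood lowest. The cells were checked against marker genes through their summed CPM, counts divided by the TMM-normalised library size. The 8 measured genes of prophase I spermatocytes, among them the synaptonemal complex genes Sycp1, Sycp2 and Sycp3, summed to between 1306 and 1760 CPM. Spermatid markers summed to 10.2 and 13.6 CPM in Tdrd6+/- and to 22.6 and 20.6 CPM in Tdrd6-/-, and Sertoli cell markers to between 53.6 and 70.7 CPM over all libraries. Leydig cell markers stayed between 7.66 and 9.93 CPM, macrophage markers between 2.63 and 5.25 CPM, and spermatogonial markers between 15.2 and 20.5 CPM.

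Tdrd6 is read from the minus strand of chromosome 17 (mm10, 43615335 to 43630299) and has 5 exons. Its first exon, segment 10 of the deposited numbering, has 6193 bases and holds 94.4% of the 6405 coding bases of transcript ENSMUST00000045717. The joins of exons that the results turn on are shown as the 12 bases on each side in the GENCODE M21 transcripts, 5′ to 3′, with the bases of the downstream exon in capitals. The first exon can be joined to the second at 2 acceptors that lie 3 bases apart, and the fourth to the last at 2 acceptors that lie 18 bases apart.
Exon 1 to exon 2, nearer acceptor (base 43624107 to base 43622257, junction 16): gcatggtaccagCAGCTCAGCTAC
Exon 1 to exon 2, farther acceptor (base 43624107 to base 43622254, junction 15): gcatggtaccagCTCAGCTACAGA
Exon 4 to exon 5, nearer acceptor (base 43617170 to base 43615921, junction 12): ccaccaccaaagGTTTTTCTTCTG
Exon 4 to exon 5, farther acceptor (base 43617170 to base 43615903, junction 11): ccaccaccaaagAGGAGGAGGCGT

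Tdrd6, the targeted gene, was counted 33220 and 39322 times in the Tdrd6+/- libraries and 359 and 400 times in the Tdrd6-/- libraries. The genotypes did not overlap. As normalised levels these were 1340 ± 101 CPM in Tdrd6+/- (SD, n = 2) and 11.9 ± 0.81 CPM in Tdrd6-/- (SD, n = 2), which leaves 0.847% and 0.933% of the Tdrd6+/- mean. The log2 fold change was -6.81 (standard error 0.17, adjusted p = 8.4e-18, edgeR quasi-likelihood test with Benjamini-Hochberg adjustment), and the labels of all 4 libraries thus match the level of the targeted gene.

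The remaining Tdrd6 counts were spread unevenly over the gene. On the first exon 29656 and 35392 counts in Tdrd6+/- stood against 135 and 143 in Tdrd6-/-, so that 0.355% and 0.372% of the Tdrd6+/- mean remained. The second exon kept more. Its segment of 125 bases was counted 1511 and 1710 times in Tdrd6+/- and 58 and 71 times in Tdrd6-/-, or 3.08% and 3.73% of the Tdrd6+/- mean. The 3 bases between the 2 acceptors of this exon were covered 461 and 522 times in Tdrd6+/- and 16 and 21 times in Tdrd6-/-.

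From the third exon on, the share left was steady. The upstream segment of exon 3 took 1014 and 1195 counts in Tdrd6+/- against 55 and 70 in Tdrd6-/-, and its downstream segment had 1367 and 1526 against 80 and 82. Exon 4, with 64 bases, went from 1470 and 1834 counts to 87 and 95. Over the segments from exon 2 on, other than the final one, the mean level left ranged from 3.2% to 5.33%, each of them higher than on exon 1 in both Tdrd6-/- libraries. In the last exon, the segment of 103 bases kept 160 and 179 counts of 2688 and 2972, the 18 bases between the acceptors kept 35 and 37 of 507 and 643, and the segment of 242 bases kept 36 and 40 of 670 and 604. The final 224 bases had 10 and 20 counts in Tdrd6+/- and 0 and 2 in Tdrd6-/-, too few to compare.

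**Figure D1:**
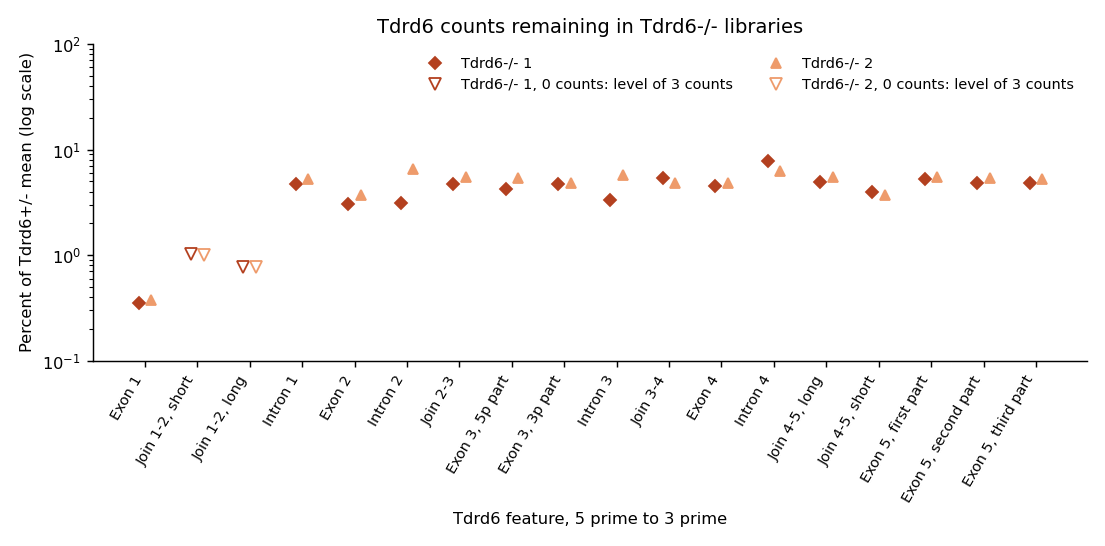
Counts of Tdrd6 features in the Tdrd6-/- libraries as a percent of the Tdrd6+/- mean (log scale), ordered from 5′ to 3′, with a filled marker for each library and an open triangle at the level of 3 counts where no count was found. The first exon lies at 0.355% and 0.372%, its 2 joins to exon 2 have no count, and the features from intron 1 on that are drawn lie between 3.08% and 7.74%. The 3 bases between the acceptors of exon 2, the final segment and the unannotated junction are not drawn. Introns are scaled to the normalised intron total of each library, exons and joins to its gene total.

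The joins of exon 1 were not found in Tdrd6-/-. The joins of exon 1 to exon 2 printed above had 231 and 270 counts at the farther acceptor and 313 and 346 at the nearer acceptor in the Tdrd6+/- libraries. Neither had a single count in either Tdrd6-/- library. Summed over both acceptors, 544 and 616 counts fell to 0 and 0, which is at least 226-fold lower when each library is set at a floor of 3 counts, and allows up to 0.442% of the Tdrd6+/- level. This bound lies above the 0.355% and 0.372% left on exon 1 itself. The 0 counts therefore do not show a fall beyond that of exon 1. Every later join was still found in Tdrd6-/-. The join of exons 2 and 3 had 716 and 889 counts in Tdrd6+/- and 44 and 52 in Tdrd6-/-, and that of exons 3 and 4 had 673 and 854 against 48 and 43. The 2 joins of exons 4 and 5 had 485 and 604 (farther) and 360 and 474 (nearer) counts in Tdrd6+/-, against 25 and 24 and 24 and 27 in Tdrd6-/-. One unannotated junction of the gene had 27 and 32 counts in Tdrd6+/- and 1 and 2 in Tdrd6-/-.

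Both acceptor pairs were used side by side. The nearer acceptor of exon 2 took 57.5% (Wilson 95% interval 53.3 to 61.6%) and 56.2% (52.2 to 60%) of the exon 1 to exon 2 joins in Tdrd6+/- replicates 1 and 2. The nearer acceptor of exon 5 took 42.6% (39.3 to 46.0%) and 44.0% (41.0 to 46.9%) in Tdrd6+/-, and 49.0% (35.6 to 62.5%) and 52.9% (39.5 to 65.9%) in Tdrd6-/-. The last 2 intervals rest on 49 and 51 counts and include the Tdrd6+/- values. These intervals cover counting error only.

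In a usage test, which asks whether the share of a gene's count on a segment or junction differs between genotypes, 13 of the 15 Tdrd6 events that passed the filter on mean count were called at a false discovery rate of 0.1. Usage of the first exon fell by 3.90 on the log2 scale (standard error 0.142, adjusted p = 2.44e-164, DESeq2 likelihood ratio test). The other 8 called segments and the 4 joins downstream of exon 2 were higher in usage, by 1.90 to 3.25 for the segments. With edgeR's usage test these changes were smaller, -2.10 for the first exon and 1.04 to 1.77 for the 8 segments, of which the one of 3 bases was not called (adjusted p = 0.89). Both joins of exon 1, absent from Tdrd6-/-, did not pass (adjusted p = 0.388 and 0.142, DESeq2 likelihood ratio test), with a standard error of 1.45 on the log2 scale for each. Usage is relative to the gene, so a segment of Tdrd6 that rose in usage had still fallen in count. The first exon held 89.3% and 90.0% of the gene count in Tdrd6+/- and 37.6% and 35.8% in Tdrd6-/-. Its fall in the disrupted gene by itself raises the share of the other features. The 13 calls are therefore not separate results.

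On their own scaling, introns of Tdrd6 kept a share near that of the downstream exons. The first intron from the 5′ end, beside exon 1, went from 499 and 428 counts to 24 and 20. The second had 166 and 130 against 5 and 8. The third carried the most counts, with 1178 and 976 against 39 and 51, and the fourth had 320 and 227 against 23 and 14. Relative to the Tdrd6+/- mean, 4.54% to 6.98% was left on these introns, averaged over both Tdrd6-/- libraries. Introns were scaled to the normalised intron total of each library, and exons and joins to its gene total. The percentages of introns and exons are therefore not on the same scale. No Tdrd6 intron changed its share of the gene's intron counts at a false discovery rate of 0.1; for the third intron the log2 usage change was -0.35 (standard error 0.27, adjusted p = 0.738, DESeq2 likelihood ratio test).

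The other members ranged, by their Tdrd6+/- mean, from 15.7 to 160 CPM per kb. Levels are given as CPM per kb of annotated exon, and ranks are among the 18827 genes of known length that reached 10 counts over all libraries. In Tdrd6+/- cells Tdrd6 was the highest member, at 180 and 200 CPM per kb, which is rank 198 from the top. In Tdrd6-/- cells it stood at 1.61 and 1.77 CPM per kb and at rank 9788.

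Among the members that work with piRNAs, Tdrd1, whose protein binds the PIWI protein MILI in the intermitochondrial cement, stood second, at 181 and 139 CPM per kb in Tdrd6+/- and 147 and 154 in Tdrd6-/-. Tdrd9, which encodes a helicase of the piRNA pathway, had 97.9 and 89.0 CPM per kb in Tdrd6+/- and 88.0 and 94.9 in Tdrd6-/-. For Tdrd12, another helicase-related gene of piRNA production, the values were 106 and 84.3 against 82.8 and 92.4. Its deposited model covers only 1620 bases of exon from the 5′ part of the gene, so this level rests on that part. Tdrkh, whose protein sits on mitochondria and binds PIWI proteins during piRNA trimming, was the lowest member, at 17.2 and 14.3 CPM per kb in Tdrd6+/- and 9.92 and 9.99 in Tdrd6-/-.

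Among the members linked to the chromatoid body or to sperm formation, Tdrd7 had 127 and 155 CPM per kb in Tdrd6+/- and 142 and 140 in Tdrd6-/-. Rnf17, a Tudor protein with a RING finger needed for spermatid development, had 103 and 85.5 against 93.0 and 92.6. Tdrd5, also needed for spermatid development and for transposon silencing, had 66.4 and 60.2 against 56.3 and 59.2. Stk31, which joins a Tudor domain to a kinase domain, had 113 and 86.8 against 97.0 and 105. Tdrd3 was placed in neither group, as a Tudor gene active in many tissues whose protein works with topoisomerase TOP3B. It was among the lower members, at 21.2 and 21.5 CPM per kb in Tdrd6+/- and 22.1 and 20.7 in Tdrd6-/-.

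In the order of the Tdrd6+/- means, Tdrd6 came before Tdrd1, Tdrd7, Stk31, Tdrd12, Rnf17, Tdrd9, Tdrd5, Tdrd3 and Tdrkh. Tdrd6 and Tdrd1 overlapped in their Tdrd6+/- ranges, and so did Tdrd1 and Tdrd7. Stk31, Tdrd12, Rnf17 and Tdrd9 formed a run in which the ranges of neighbours overlapped, although Stk31 was above Tdrd12 in 4 of 4 libraries, with a ratio of 1.10 ± 0.065 (SD, n = 4). The ranges of Tdrd7 and Stk31 did not overlap, nor did those of neighbours from Tdrd9 down to Tdrkh. Tdrd7 was above Stk31 in 4 of 4 libraries, Tdrd9 above Tdrd5 with a ratio of 1.53 ± 0.064 (SD, n = 4), and Tdrd5 above Tdrd3 with a ratio of 2.83 ± 0.243 (SD, n = 4). Apart from Tdrd3 and Tdrkh, at ranks 2972 and 3727, every member was among the first 987 genes in Tdrd6+/-.

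**Figure D2:**
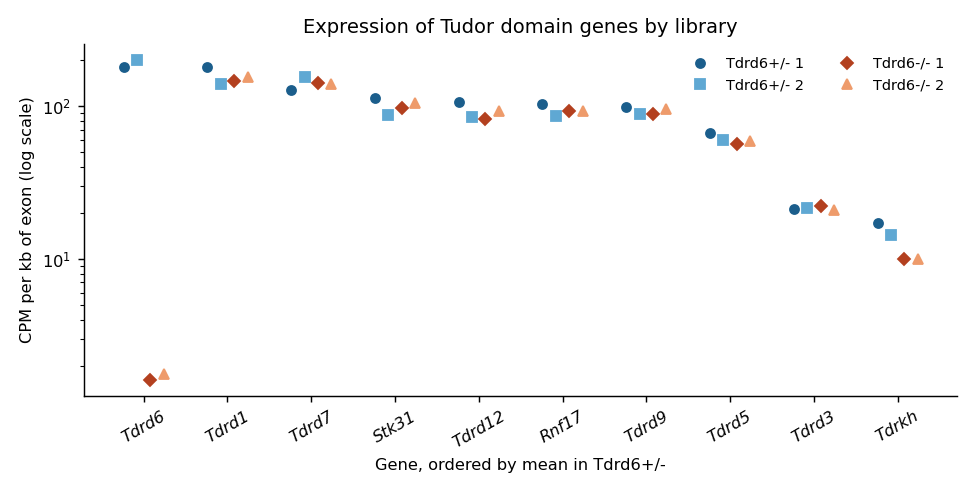
Expression of the 10 genes in CPM per kb of exon (log scale), with a marker for each library, ordered by the Tdrd6+/- mean. Tdrd6 drops from 180 and 200 in Tdrd6+/- to 1.61 and 1.77 in Tdrd6-/-, Tdrkh lies lower in both Tdrd6-/- libraries, and the other genes stay near their Tdrd6+/- level.

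Expression of the family outside Tdrd6 was compared between Tdrd6-/- and Tdrd6+/- cells on whole-gene counts. Tdrkh fell, from 2642 and 2330 counts in Tdrd6+/- to 1839 and 1875 in Tdrd6-/-, or from 92.3 ± 12.2 to 58.4 ± 0.304 CPM (SD, n = 2 each). Both Tdrd6-/- values were below both Tdrd6+/- values. The log2 fold change was -0.66 (standard error 0.141, adjusted p = 0.0093, edgeR quasi-likelihood test), which is 0.633 times the Tdrd6+/- level. Including Tdrd6, 2 of 10 members were called at a false discovery rate of 0.1, both lower. Tdrd6 is the disrupted gene, so its call and direction were set by the design. Among the 9 members other than Tdrd6, Tdrkh alone was called. Over the 16555 genes tested 4.80% were called in either direction and 3.78% lower.

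The fall of Tdrkh (chromosome 3, 94413273 to 94434668, plus strand) ran along the gene. Of its 16 exon segments with at least 100 counts, 15 were lower in Tdrd6-/- in both libraries, and the ratio of the mean CPM ranged from 0.538 to 1.05 with a median of 0.615. On its introns 11 of 12 were lower, with a median ratio of 0.698. Introns were scaled to the normalised intron total of each library and exon segments to its gene total. The medians of introns and exons are therefore not on the same scale. The first intron, which held more counts than any other intron of Tdrkh, had 391 and 264 counts in Tdrd6+/- and 195 and 174 in Tdrd6-/-. No segment, junction or intron of Tdrkh was called in usage relative to the gene. In bulk values of this kind fewer cells of a type and less RNA per cell cannot be told apart. The last exon overlaps Oaz3, a gene on the opposite strand with 374 counts over the 4 libraries, and whether the counting used strand is not stated. Without Tdrd6-/- replicate 2 the call on Tdrkh was lost (log2 fold change -0.66, adjusted p = 0.112, edgeR), as it was when genes of low count were not filtered out (-0.64, adjusted p = 0.196, edgeR).

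The other 8 members did not pass the test. Tdrd5 had the largest difference, with 12056 and 11624 counts in Tdrd6+/-, 12339 and 13132 in Tdrd6-/-, normalised levels of 439 ± 30.5 and 400.2 ± 14.2 CPM (SD, n = 2 each) and a change of -0.13 on the log2 scale (standard error 0.128, adjusted p = 0.733, edgeR). Its CPM groups did not overlap, which held for 3 of 10 members and for 43.5% of all genes tested. Tdrd1 had 25754 and 21139 counts against 25248 and 26758 (log2 fold change -0.09), Tdrd12 had 4483 and 3805 against 4239 and 4792 (-0.12), and Tdrd9 had 12330 and 11920 against 13388 and 14602 (-0.03). For these 3 genes the genotypes overlapped.

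Rnf17 was counted 14182 and 12542 times in Tdrd6+/- and 15488 and 15600 times in Tdrd6-/-, with a log2 fold change of -0.02. Tdrd7 had 13131 and 17054 against 17746 and 17684 counts (log2 fold change 0.00), Stk31 had 9589 and 7825 against 9932 and 10908 (0.02), and Tdrd3 had 3200 and 3450 against 4040 and 3833 (0.01). Taking 2 standard errors on either side, the 8 log2 fold changes lay between -0.39 and 0.30, so a change of the size seen in Tdrkh lay outside these intervals. The sign of the values for Rnf17, Tdrd1, Tdrd3, Tdrd7, Tdrd9, Tdrd12 and Stk31 turned when 1 library was left out.

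**Figure D3:**
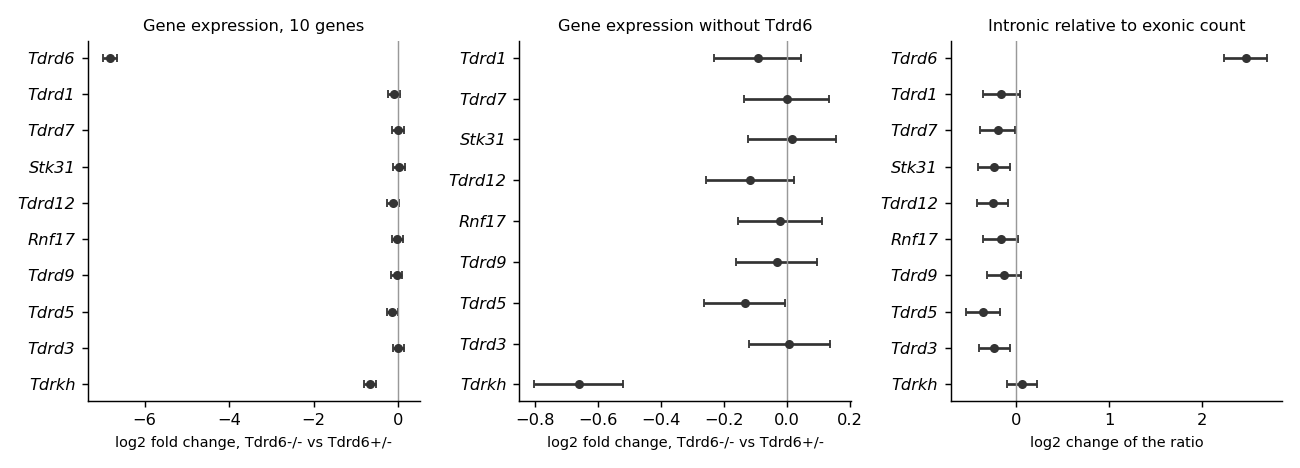
Changes in Tdrd6-/- relative to Tdrd6+/- (log2), as points with bars of 1 standard error, for gene expression of all 10 genes, for gene expression without Tdrd6, and for intronic relative to exonic counts. In expression Tdrd6 lies at -6.81 and Tdrkh at -0.66 while the others are near 0, and in the ratio Tdrd6, at 2.47, is the only gene called.

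Marker genes moved as well. Of the prophase I markers 2 of 8 rose in Tdrd6-/-, against 1.02% of all genes tested, Sycp1 from 161 and 102 CPM to 186 and 214 CPM (log2 fold change 0.60, adjusted p = 0.0467, edgeR) and Sycp2, also of the synaptonemal complex, from 647 and 495 to 798 and 751 CPM (adjusted p = 0.09997). Of 3 spermatid markers that could be tested, 2 rose, both genes of the acrosome, Spaca1 from 5.96 and 7.11 to 11.9 and 11.4 CPM (adjusted p = 0.0359, edgeR) and Acrv1 from 2.94 and 5.71 to 9.39 and 7.53 CPM (adjusted p = 0.0565, edgeR). The protamine and transition protein genes, which define later spermatids, stayed at or below 0.316 CPM in every library. The part of these shifts in the fall of Tdrkh was not tested.

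Other genes of the pathway were read from lists chosen by their known roles. Of 18 tested further Tudor domain genes, 1 passed and none was higher, a share near the 4.80% of all genes called. This was Uhrf1, which maintains DNA methylation, with 185 and 191 CPM in Tdrd6+/- and 136 and 135 CPM in Tdrd6-/- (log2 fold change -0.47, standard error 0.128, adjusted p = 0.0421, edgeR). The median log2 fold change of the list was -0.19, against 0.01 over all genes tested. Smn1, whose product assembles spliceosomal particles through a Tudor domain, had a log2 fold change of -0.57 with an adjusted p of 0.22 (edgeR).

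Among 20 tested partners of Tudor proteins, 3 were lower and none higher, against 3.78% of all genes called lower, with a median log2 fold change of -0.04. Upf2, a factor of nonsense-mediated RNA decay, went from 141 and 143 CPM in Tdrd6+/- to 104 and 88.3 CPM in Tdrd6-/- (log2 fold change -0.56, standard error 0.135, adjusted p = 0.0209, edgeR). Upf1, the helicase of the same decay pathway, went from 335 and 375 to 250 and 239 CPM (-0.54, adjusted p = 0.0214). Piwil1, the PIWI protein of pachytene spermatocytes and spermatids, went from 1105 and 928 to 732 and 765 CPM (-0.44, adjusted p = 0.0773).

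No other gene fell as far as Tdrd6. By the lowest log2 fold change among called genes, the nearest was Gm597, a predicted gene, with 276 and 264 counts in Tdrd6+/- and 23 and 19 in Tdrd6-/- (log2 fold change -3.91, standard error 0.292, adjusted p = 2.6e-08, edgeR). The next 4 were rows of few counts. The microRNA gene Mir1b had 19 and 15 counts against 0 and 8, Gm26491 had 20 and 18 against 7 and 2, and Gm27653 had 17 and 20 against 6 and 4. One row without a symbol, ENSMUSG00000093053, had 50 and 20 counts against 14 and 5. Their log2 fold changes lay between -2.29 and -2.09.

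Whether intronic reads changed relative to exonic reads was asked for each gene as a whole, with intron and gene totals scaled separately. In Tdrd6+/- cells Tdrd6 had the lowest ratio of the family, with 6.51 and 4.48 intron counts per 100 gene counts. In Tdrd6-/- cells it had 25.3 and 23.2. The log2 change of the ratio was 2.47 (standard error 0.233, adjusted p = 9.91e-09, edgeR quasi-likelihood test of the interaction). This made Tdrd6 the 1 of 10 members called, against 2.99% of 13030 genes tested. Tdrd6 is the disrupted gene, so its call is not a result about the family, and no other member was called. The exonic count of Tdrd6 is mostly that of the first exon, where least was left, whereas its introns kept 4.26% and 5.75% of the Tdrd6+/- level.

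For the other 9 members the ratio differed widely by gene. Before scaling, its mean was lower in Tdrd6-/- for each of them. Tdrd12 had 96.3 and 73.7 intron counts per 100 gene counts in Tdrd6+/- and 65.8 and 49.5 in Tdrd6-/-. Tdrd7 had 34.6 and 25.1 against 23.0 and 18.7, the lowest of the 9 in Tdrd6-/-. The share of all fragments on introns was likewise lowest in Tdrd6-/- replicate 2. After scaling, Tdrd5 had 89.6 and 67.4 intronic CPM per 100 gene CPM in Tdrd6+/- and 60.3 and 60.7 in Tdrd6-/-, and its log2 change of -0.36 was the lowest of the family (standard error 0.183, adjusted p = 0.386, edgeR).

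Stk31 went from 90.2 and 84.3 to 70.0 and 77.4 scaled units, a log2 change of -0.24, and Tdrd3 from 162 and 115 to 119 and 113, also -0.24. Rnf17 (-0.17), Tdrd1 (-0.16), Tdrd9 (-0.13), Tdrd7 (-0.20) and Tdrd12 (-0.26) were likewise below 0, and Tdrkh was at 0.06. None of these 9 passed, with adjusted p-values from 0.386 to 0.915 (edgeR). Of the 9 values 8 were below 0, with a median of -0.20, while over all genes tested the median was 0.06 and 41.8% were below 0. Under a single scaling by the gene total the median of all genes moved to -0.24 and all 9 were below 0.

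**Figure D4:**
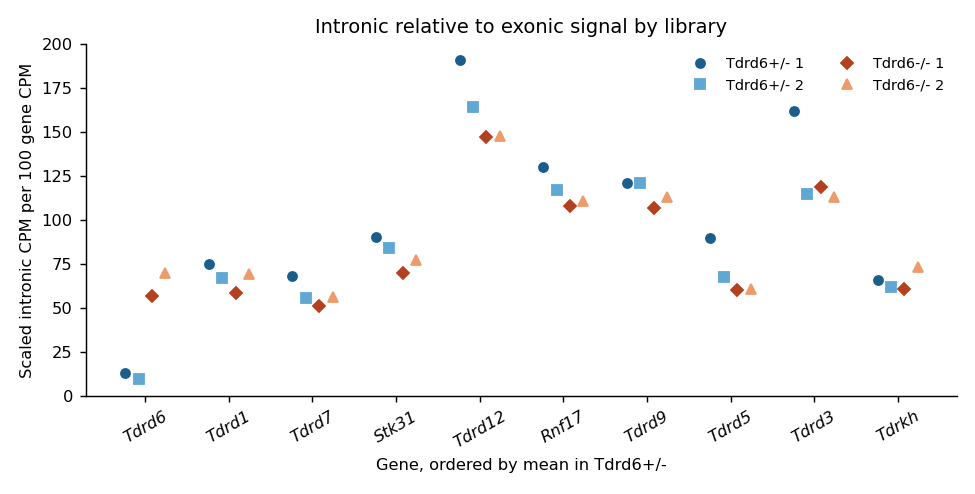
Scaled intronic CPM per 100 gene CPM for the 10 genes, with a marker for each library. Tdrd6 rises from 12.9 and 9.95 in Tdrd6+/- to 56.7 and 69.7 in Tdrd6-/-, while no other gene passed the test.

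Per length, intronic signal was a small part of exonic signal. The density of counts on introns was 5.82% and 4.00% of that on exons for Tdrd6 in Tdrd6+/- and 22.7% and 20.8% in Tdrd6-/-. Tdrkh had the highest value of the other members, from 9.22% to 12.6% over the 4 libraries. Within genes the density varied greatly. Introns of Tdrd1 held 60.4 to 1640 counts per kb on average over libraries, those of Tdrd9 12.9 to 1310, those of Stk31 18.0 to 571, and those of Tdrd3 only 7.68 to 118.

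The introns with the most counts were also compared one by one, as a share of the gene's intron counts. Intron 12 of Tdrd1 held 20.5% and 19.8% in Tdrd6+/- and 19.7% and 18.6% in Tdrd6-/- (log2 usage change -0.09), and intron 25 of Rnf17 held 20.1% and 20.3% against 23.4% and 21.6% (0.20). Intron 14 of Tdrd3 held a similar share in every library, at 32.4% and 32.8% against 31.3% and 30.2% (-0.12). Intron 8 of Tdrd7 held 21.7% and 20.9% against 22.7% and 19.0% (-0.04), and intron 6 of Stk31 held 14.4% and 16.9% against 13.9% and 12.9% (-0.26). For the minus-strand genes, whose introns are numbered from the 3′ end, intron 12 of Tdrd5 held 18.3% and 19.4% against 17.5% and 16.3% (-0.19) and intron 8 of Tdrd12 held 24.5% and 22.3% against 21.2% and 18.2% (-0.32). The first intron of Tdrkh held 44.3% and 40.7% against 39.1% and 38.0% (-0.24). None of these passed, with adjusted p-values from 0.529 to 0.982 (DESeq2 likelihood ratio test).

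Of the 197 member introns 139 passed the filter on mean count, and 3 of these were called, all with lower usage in Tdrd6-/- cells. That is 2.16% of the member introns tested, near the 1.94% of all 28903 introns that were called in either direction and above the 1.22% called lower. Intron 13 of Tdrd9 (chromosome 12, 112015963 to 112023241), the intron with the most counts in that helicase gene, had 1153 and 857 counts in Tdrd6+/- and 690 and 483 in Tdrd6-/-. Its share of the intron counts went from 15.3% and 13.3% to 10.8% and 8.76% (log2 usage change -0.63, standard error 0.176, adjusted p = 0.0391, DESeq2 likelihood ratio test).

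Intron 4 of Tdrd1 (chromosome 19, 56834465 to 56837641) had 327 and 190 counts against 140 and 111, and its share went from 3.35% and 2.97% to 2.12% and 1.80% (log2 usage change -0.71, standard error 0.215, adjusted p = 0.068, DESeq2). Intron 3 of Tdrd7 (chromosome 4, 45972933 to 45987461), which makes up 22.2% of the intron length of the gene, had 782 and 719 counts against 542 and 373, and its share went from 17.2% and 16.8% to 13.3% and 11.3% (-0.55, standard error 0.170, adjusted p = 0.0797, DESeq2). In all 3 introns the lowest share was that of Tdrd6-/- replicate 2, the library with the least intronic signal, and the part of that library in the result was not tested beyond leaving it out. The 3 calls were lost without that library, without either Tdrd6+/- library and with edgeR's usage test. In these settings the log2 usage changes stayed between -0.80 and -0.42. Calls over all introns went from 561 to 12 without Tdrd6-/- replicate 2, and to 4 and 333 without Tdrd6+/- replicates 1 and 2. The edgeR test called 0 member introns and 2 of all introns, with 10 member introns at an unadjusted p under 0.05. No gene with a row of its own lies inside these introns. In the DESeq2 likelihood ratio test 18 of the 197 member introns had an unadjusted p under 0.05. The share of all introns under that cutoff was not worked out. These counts, and that of edgeR, are therefore not a result about the members.

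Exon segments and junctions of the members outside Tdrd6 gave 1 call among the 410 events tested, or 0.244%, against 0.221% of all 147710 events. Counting the 13 of Tdrd6, the disrupted gene, which are not separate results, 14 of 425 member events were called. The single event was segment 10 of Tdrd5 (chromosome 1, 156271400 to 156274390, minus strand), with 451 and 289 counts in Tdrd6+/- and 224 and 173 in Tdrd6-/-. Its share of the gene count went from 3.74% and 2.49% to 1.81% and 1.32% (log2 usage change -1.01, standard error 0.204, adjusted p = 0.0018, DESeq2 likelihood ratio test).

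This segment of 2991 bases lies inside an intron of the coding transcripts of Tdrd5 and is exonic only in a processed transcript without a reading frame. Its density was that of an intron, at 95 counts per kb, against 6300 counts per kb on the adjoining segment 9 and 124 on the adjoining intron 7. Intron 7 had 405 and 265 counts in Tdrd6+/- and 248 and 158 in Tdrd6-/-. Its log2 usage change among the introns was -0.17 (adjusted p = 0.874, DESeq2). Intron 6, on the other side of segment 9, had 145 and 117 against 111 and 84 (0.14, adjusted p = 0.936, DESeq2). Usage of these introns is relative to the other introns of Tdrd5, and that of segment 10 to the whole gene count. The usage values are therefore not comparable. In counts, segment 10 and both introns were lower in both Tdrd6-/- libraries. Against the gene count, as used for segment 10, the summed introns of Tdrd5 were also lower before scaling. They had 45.3 and 30.4 counts per 100 gene counts in Tdrd6+/- and 26.9 and 20.3 in Tdrd6-/-. The fall is therefore not shown to be particular to segment 10. The call on segment 10 was lost without Tdrd6+/- replicate 1 (log2 usage change -0.69, adjusted p = 0.896, DESeq2) and without Tdrd6-/- replicate 2 (-0.78, adjusted p = 1.0).

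**Figure D5:**
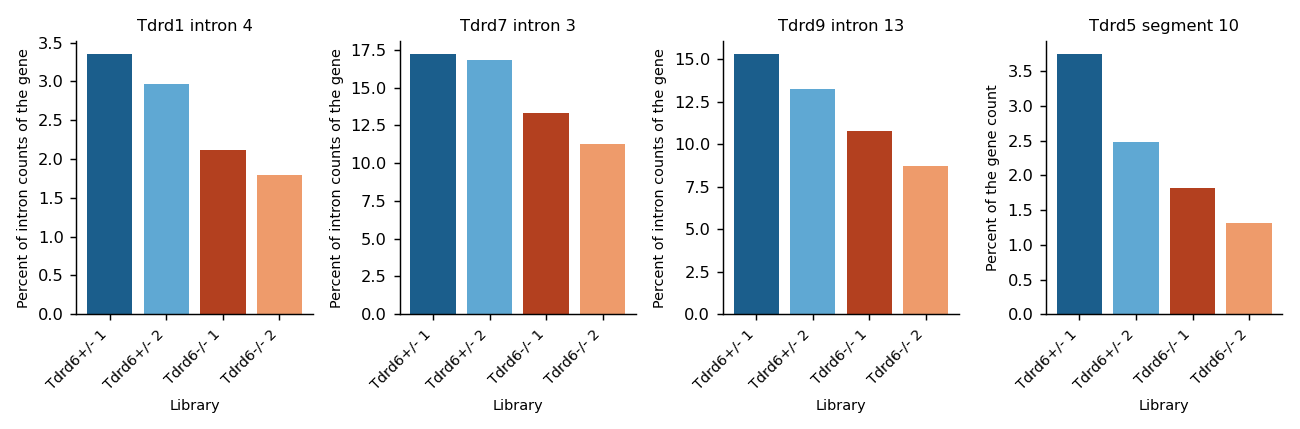
The 3 called introns as a percent of the intron counts of their gene, and segment 10 of Tdrd5 as a percent of the gene count, with a bar for each library. Both Tdrd6-/- bars are below both Tdrd6+/- bars in each panel, as at 15.3% and 13.3% against 10.8% and 8.76% for intron 13 of Tdrd9.

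No segment or junction of Tdrd1, Tdrd3, Rnf17, Tdrd7, Stk31, Tdrd9, Tdrd12 or Tdrkh was called. The largest of them by number of events, Rnf17, had 73 events that passed the filter and Tdrd9 had 71. Unannotated junctions were few. The one with the most counts was junction 26 of Tdrd12, with 123 and 105 counts in Tdrd6+/- and 156 and 148 in Tdrd6-/-, followed by junction 59 of Tdrd1 with 81 and 56 against 71 and 83. Neither was called (adjusted p = 1.0 for each, DESeq2 likelihood ratio test).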

How the data were processed

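RNA of hCD4+ testis cells, depleted of ribosomal RNA, was sequenced by the authors as paired ends from directional libraries, converted with bcl2fastq 1.8.4 (submitters' processing notes), aligned to mm10 with GSNAP and annotated with Ensembl 75. The deposited counts are raw. For each library there were 2 count files, one for introns and one for genes, exon segments and junctions. Counting program and use of strand are not given in the sources used here. The 4 libraries were grouped by their labels.

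Positions and lengths came from GENCODE M21 (mm10), limited to transcripts with an ID number below 186000. At this limit the most genes had as many segments, junctions and introns as the deposited counts. The numbers agreed for 86.7% of the genes with introns that were scanned, and in full for 9 of 10 members. The match is by number and not by position, so lengths of genes that do not match are approximate. In Tdrd6 the number of segments differed by a split of the first exon. Gene expression and the intronic to exonic ratio were tested with edgeR 4.0.16 (TMM, quasi-likelihood). Standard errors given with edgeR were worked back from the log2 change and the F statistic. Intervals of 2 standard errors are therefore approximate. Usage was tested with the DEXSeq and JunctionSeq models fitted in DESeq2 1.42.0 (R 4.3.3) on features with at least 10 counts and, by independent filtering, a mean above 85.5 (introns) or 53.4 (exons and junctions). P-values were adjusted over all features, at a false discovery rate of 0.1. Folds against 0 used a floor of 3 counts per library. With 2 against 2 libraries an exact permutation test of a single value cannot give a p below 0.33, so none is given. Libraries of a genotype differed by more than sampling noise (chi-square per degree of freedom 25.9 and 23.0). P-values refer to the spread between pools of animals. The fits estimate that spread largely from all features together, as 2 libraries per genotype give little for a single feature.

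Members, lists and tests were chosen with earlier results of these data known. All members were named, with every feature called, the intron with the most counts in each, Tdrd6 segments with at least 10 counts, the 5 called genes with the lowest fold change after Tdrd6, and up to 4 called genes per list. Some further values (unannotated junctions, neighbours of a called segment, Smn1 and marker genes) were added after they had been seen. Fits were tested on simulated data. At a log2 change of 1 they recovered 77% of changes in expression and 40.5% in the ratio. For intron and exon usage this was 69.5% and 23%, so changes of this size can be missed. At a log2 change of 2 the recovery was 96% to 99.5%. Of the simulated calls 2.8% to 12.3% lay in unchanged genes. For usage, calls on unchanged features of a changed gene are not in these shares. In intron usage at a log2 change of 2, 502 calls were made with 200 introns changed. Alternatives were other scalings, filters, tests, thresholds, references, lengths, replicate blocks and leaving out each library.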

Additional observations from a re-analysis of the deposited data

How the results depend on the processing

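Tdrd6 kept its call in expression and in the intronic to exonic ratio under every setting tried, with log2 values from -6.88 to -6.73 and from 2.17 to 2.65. Tdrkh was called in 9 of 11 settings. Of the members in expression, 2 were called, and 1 without a filter on low counts. Leaving out 1 library each gave 1 to 2 members called in expression, 1 in the ratio, 0 to 4 introns (also outside Tdrd6), 12 to 16 segments and junctions, and 0 to 2 of these outside Tdrd6. Intron calls were 0 with edgeR's usage test, 0 without independent filtering, 1 at a false discovery rate of 0.05, and 13 (11 outside Tdrd6) against exonic counts, where 10.2% of all introns were called. In the settings with all libraries and 0 intron calls, 10 to 18 of 197 member introns had an unadjusted p under 0.05. The share of all introns under that cutoff was not worked out. Segment 9 of Tdrd6 (3 bases) lost its call with edgeR's usage test and without Tdrd6-/- replicate 2. The cause of these shifts was not tested.

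Signs turned only for members that were not called. In expression this was Rnf17 without the filter (0.004), and, when 1 library was left out, without Tdrd6+/- replicate 1 Rnf17 (0.13), Tdrd1 (0.119), Tdrd12 (0.067), Tdrd7 (-0.125) and Tdrd9 (0.051), without Tdrd6+/- replicate 2 Stk31 (-0.159), without Tdrd6-/- replicate 1 Tdrd3 (-0.039), Tdrd7 (-0.011) and Tdrd9 (0.022), and without Tdrd6-/- replicate 2 Stk31 (-0.034). In the ratio it was Tdrkh (-0.244) with a single scaling, a setting added after seeing the data, Tdrd3 (0.003) without Tdrd6+/- replicate 1, and Tdrkh (-0.075) without Tdrd6-/- replicate 2. The opposite ends of these leave-one-out ranges were, in expression, -0.146 (Rnf17), 0.063 (Tdrd3), 0.233 (Stk31), -0.265 (Tdrd1), -0.269 (Tdrd12), 0.153 (Tdrd7) and -0.096 (Tdrd9), and in the ratio -0.492 (Tdrd3) and 0.192 (Tdrkh).

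Over all libraries and per kb, ranks were 573 (Tdrd6), 306 (Tdrd1), 2947 (Tdrd3), 595 (Rnf17), 1033 (Tdrd5), 352 (Tdrd7), 540 (Stk31), 608 (Tdrd9), 613 (Tdrd12) and 4232 (Tdrkh). Without length correction they were, in that order, 166, 108, 1830, 307, 380, 241, 546, 347, 1497 and 2863. With the exon length of all M21 transcripts, added after seeing the data, Tdrd3 was at 2631, Rnf17 at 603, Tdrd9 at 561 and Tdrd12 at 1633.

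The labels do not say that equal replicate numbers are paired, and deviations of same-numbered libraries correlated at -0.107 over 12347 genes and 0.0507 over 44784 introns. With the replicate number as a block, the calls were 2 members in expression, 1 in the ratio, 3 introns and 14 segments and junctions (1 outside Tdrd6), the same numbers as without it. With the crossed pairing, added after the correlation was seen, they were 2, 1, 0 and 14, with 0 introns outside Tdrd6. Features under the filters on mean count were not tested, and 2 libraries per genotype limit all tests.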
